A study of Mus musculus with 14 samples.

Results

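Krueppel-like factors (Klf) are zinc finger proteins that bind GC-rich and CACCC sequences of DNA. The 10 members described here, Klf2, Klf3, Klf4, Klf5, Klf6, Klf7, Klf9, Klf10, Klf13 and Klf15, were taken by gene symbol, and each had 1 transcript cluster on the array whose annotation gave that symbol alone. They are 10 of 19938 genes tested. Duodenal RNA was measured on Affymetrix Mouse Gene 1.0 ST arrays, which read a transcript with many short probes, and all values are log2 signals as deposited. Tumors came from 6 Lrig1-CreERT2/CreERT2 (Lrig1-/-) mice, in which a tamoxifen-inducible Cre sits in both copies of Lrig1, and adjacent normal tissue from 5 of these 6 mice. The comparison tissue was normal duodenum of 3 wildtype mice, which carry neither the Lrig1 loss nor the inserted Cre, so the effects of loss and insertion cannot be told apart. All 9 mice were on a mixed 129S7/SvEv and C57/BL6 background and were age matched per the labels, which state no age. Samples were labelled as proximal duodenum, with the tissue given as duodenal tumor for tumors and as duodenal epithelium for adjacent and wildtype samples. The question was how duodenal tumors that arise without Lrig1, a brake on ErbB receptors, differ from normal duodenum.

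In the gut epithelium Klf5 is found in dividing crypt cells and favours proliferation, whereas Klf4 is found in differentiated cells of the villus and favours exit from the cell cycle. Klf10 was first described as a gene induced by TGF-beta, and Klf6 responds quickly to injury. Klf2 keeps endothelial cells and naive lymphocytes quiescent. Klf3 is a repressor that works through CtBP proteins, Klf9 and Klf13 are related factors that recruit the Sin3A corepressor, and Klf15 is known from amino acid and lipid metabolism in liver and muscle. Klf9 and Klf15 are both induced by glucocorticoids and follow the daily clock in several tissues.

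Several arrays stood apart before any factor was read. Lrig1 had a median of 8.05 in tumors (7.65 to 8.54), against 7.21 in adjacent tissue (6.95 to 7.40) and 9.34 in wildtype duodenum (8.22 to 9.54). Tumors were higher than adjacent tissue (log2 fold change 0.88 ± 0.17, SE, limma adjusted p = 0.00102) and lower than wildtype duodenum (-0.96 ± 0.24, adjusted p = 0.0162). Adjacent tissue lay below wildtype without overlap (-1.84 ± 0.25, adjusted p = 0.0511), and whether the probes lie in the disrupted part of the gene was not analysed here. The summed level of 10 pancreatic acinar genes, given as their mean, was 13.4 in adjacent replicate 1, 14.2 in adjacent replicate 2, 14.003 in wildtype replicate 1 and 13.6 in wildtype replicate 3, against 7.26 to 7.49 in the other 4 non-tumor arrays and 7.47 to 9.98 in tumors. Wildtype replicate 1 also had a mean of 13.4 over 6 gastric pit genes, inside the tumors' range of 12.3 to 13.8, while the other two wildtype arrays had 6.73 and 7.17. Epithelial markers averaged 12.5 to 13.1 over all arrays. Smooth muscle markers averaged 8.35 to 10.97 in tumors, 9.39 to 10.52 in adjacent tissue and 10.02 to 10.93 in wildtype duodenum. Adjacent and wildtype samples, whose tissue label names epithelium, thus also carried muscle transcripts.

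Of the 10 factors, Klf10 and Klf5 were higher in tumors than in adjacent tissue. In the fit of all arrays the folds were 1.93 (95% interval 1.52 to 2.43) and 1.23 (1.11 to 1.36). The other 8, among them Klf4, did not pass in any of the 3 comparisons, with log2 fold changes between -0.38 and 0.18 in tumor over adjacent tissue. In that comparison 31.7% of all genes tested passed with 19.1% higher and 12.6% lower, so 2 of 10 factors (20.0%) is no larger a share than the background. The median log2 fold change was 0.11 over the factors and 0.04 over all genes. Against wildtype, Klf10 alone passed in tumors (1 of 10, against 14.1% of all genes, of which 9.65% higher and 4.48% lower). The other 9 had adjusted p-values of 0.115 to 0.97, and the median log2 fold change was 0.05 over the factors. Between adjacent tissue and wildtype 0 of 10 factors passed with limma, none of the 10 at an unadjusted p under 0.05 either, where 0% of all genes passed and 559 of 19938 had an unadjusted p under 0.05. The factors lay between -0.24 (Klf4) and 0.24 (Klf7) in log2 fold change there. Groups did not overlap for 2.12% of all genes and for none of the factors. In these bulk samples fewer cells of a type and less RNA per cell cannot be told apart.

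**Figure D1:**
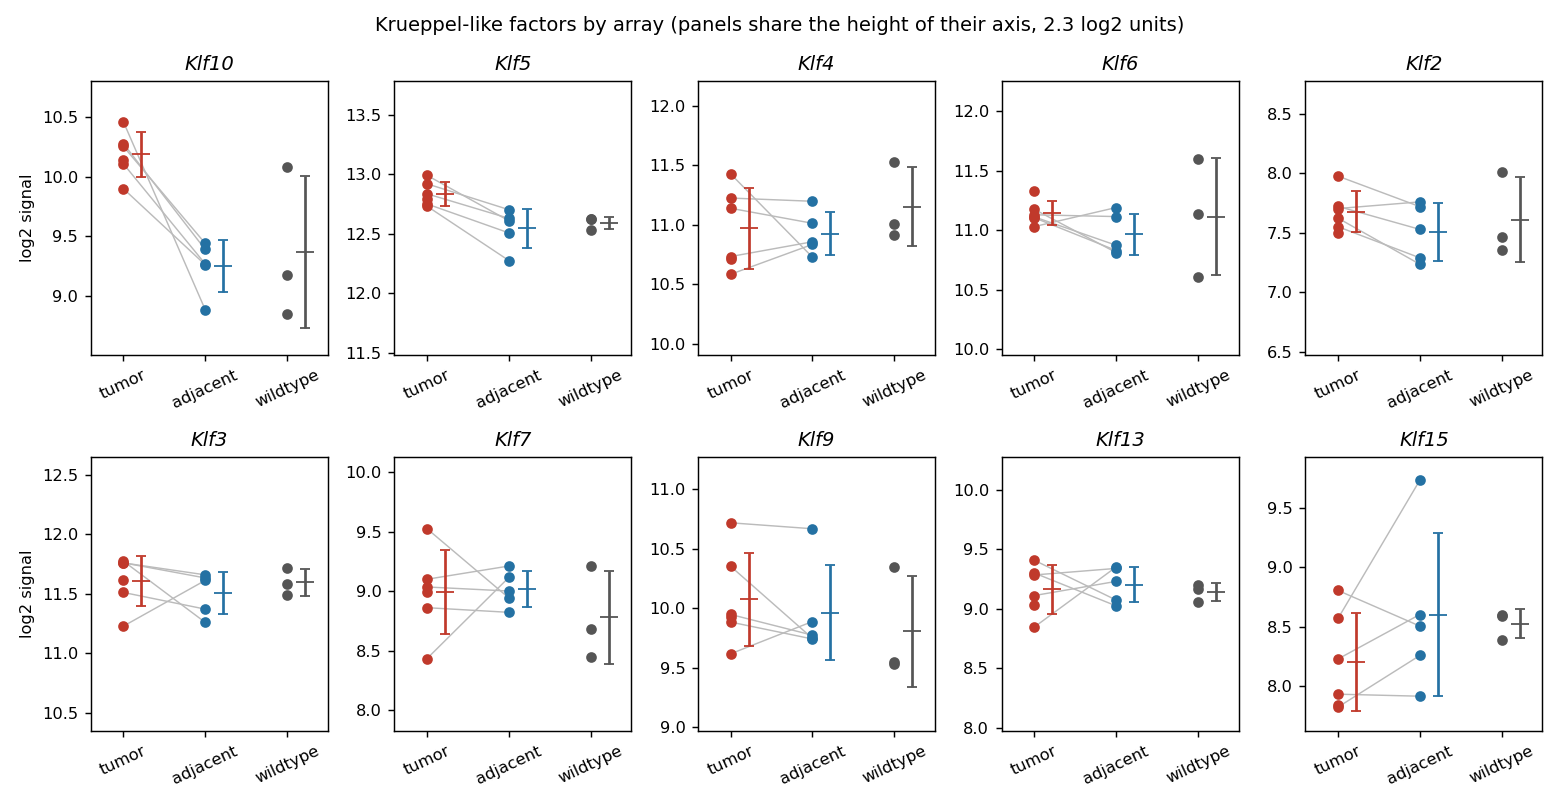
Log2 signal of each factor by array (points) in 6 tumor, 5 adjacent and 3 wildtype arrays, with the mean and SD beside each group and grey lines joining tissues of 1 mouse. The Klf10 and Klf5 points of tumors lie above every adjacent point, and the other 8 factors overlap between tumor and adjacent tissue.

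Klf10 is a transcription factor of the TGF-beta response that can slow cell division. It was at 10.14, 10.25, 10.46, 10.28, 10.11 and 9.90 in tumor replicates 1 to 6. Adjacent replicates 1 to 5 had 9.44, 8.88, 9.39, 9.27 and 9.26, and wildtype replicates 1 to 3 had 10.09, 8.85 and 9.17. Every tumor lay above every adjacent array, and wildtype replicate 1 was the 1 non-tumor array inside the tumors' range. Tumors averaged 10.19 ± 0.19 (SD, n = 6), adjacent tissue 9.25 ± 0.22 (n = 5) and wildtype duodenum 9.37 ± 0.64 (n = 3). The difference within a mouse ran from 0.64 to 1.58 log2 units over the 5 pairs, largest in the mouse of tumor replicate 3 and adjacent replicate 2. The log2 fold change in tumor over adjacent tissue was 0.95 ± 0.16 (SE; adjusted p = 0.000318 in limma). Non-overlap was seen for 17.2% of all genes in that comparison, and 22.9% were higher in 5 of 5 pairs.

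Against wildtype, Klf10 rose by a log2 fold change of 0.82 ± 0.22 (adjusted p = 0.0235), with overlap because of wildtype replicate 1. Without that array the Klf10 difference was 1.18 ± 0.17 (adjusted p = 0.00035). Leaving out wildtype replicate 2 gave 0.56 ± 0.22 (adjusted p = 0.182), and leaving out wildtype replicate 3 gave 0.72 ± 0.26 (adjusted p = 0.125), so that the call against wildtype ended in both cases. Within mice whose ID begins with F, a letter the labels do not explain, Klf10 differed by 1.14 ± 0.19 between tumor and adjacent tissue (adjusted p = 0.0197), and within those beginning with B by 0.79 ± 0.11 (adjusted p = 0.00058). Against wildtype the Klf10 values were 0.20 ± 0.26 (adjusted p = 0.882) within letter F, where wildtype replicate 1 is the 1 wildtype mouse and was assumed to vary like the other groups, and 1.09 ± 0.15 (adjusted p = 0.00127) within letter B.

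Markers of several cell types moved with Klf10 across arrays. In tumor over adjacent tissue 6 of 6 gastric pit and 5 of 8 fibroblast genes rose, against 19.1% of all genes higher. Of 10 enterocyte genes 9 fell, against 12.6% of all genes lower. Over the 8 non-tumor arrays the Pearson r of Klf10 was 0.89 with the goblet mean, 0.83 with gastric pit and 0.68 with epithelial markers. It was 0.59 with fibroblast, -0.50 with T and NK cell and -0.71 with enterocyte markers. These values describe arrays that share mice and normalization. Wildtype replicate 1 had the highest Klf10 of these 8 arrays, at 10.09. The other wildtype arrays had 8.85 and 9.17, and adjacent tissue 8.88 to 9.44. Its goblet mean (13.15) was also the highest of the 8. The gastric pit mean of this array was 13.4, against 6.73 and 7.17 in the other wildtype arrays and 6.11 to 8.19 in adjacent tissue. This 1 array thus lay far from the rest in both Klf10 and gastric pit genes. Without this array r was not computed, so how far the values rest on it was not tested. The enterocyte mean was 10.4 to 10.9 in tumors, against 12.8 to 13.6 in adjacent tissue and 12.1 to 13.5 in wildtype duodenum, where replicate 1, which had the highest Klf10 of the 3, was the lowest. The part of these cell types in the Klf10 difference was not tested.

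Klf5, which drives proliferation of crypt cells, was at 12.79, 12.92, 12.73, 12.99, 12.84 and 12.75 in tumor replicates 1 to 6. Adjacent replicates 1 to 5 had 12.70, 12.28, 12.61, 12.63 and 12.51, and the wildtype arrays had 12.53, 12.62 and 12.62. Tumors lay above all 8 non-tumor arrays, by a narrow margin of 12.73 against 12.70 at the boundary. The means were 12.84 ± 0.10 (SD, n = 6) in tumors, 12.54 ± 0.17 (n = 5) in adjacent tissue and 12.59 ± 0.05 (n = 3) in wildtype duodenum. Klf5 was higher in tumors in 5 of 5 pairs, by 0.21 to 0.46 log2 units. The log2 fold change was 0.29 ± 0.07 (SE; adjusted p = 0.0037). A difference of this size against wildtype, 0.24 ± 0.10, did not pass (adjusted p = 0.115), although the groups did not overlap, as was the case for 13.6% of all genes.

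For Klf5 the comparison with adjacent tissue lost its call within mice of letter F (0.33 ± 0.14, adjusted p = 0.216) and kept it within letter B (0.28 ± 0.09, adjusted p = 0.0377). With the non-tumor arrays lacking acinar transcripts left out, which leaves the 2 adjacent replicates of letter F, the difference was 0.35 ± 0.12 (adjusted p = 0.102). Adjacent replicate 2 had the lowest Klf5 of all arrays, and without it the log2 fold change was 0.24 ± 0.06 (adjusted p = 0.00713). Of 7 epithelial markers 4 rose and 1 fell, against 19.1% of all genes higher and 12.6% lower. Their mean was 12.7 to 13.1 in tumors and 12.5 to 12.7 in adjacent tissue. Their part in the Klf5 difference was not tested.

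**Figure D2:**
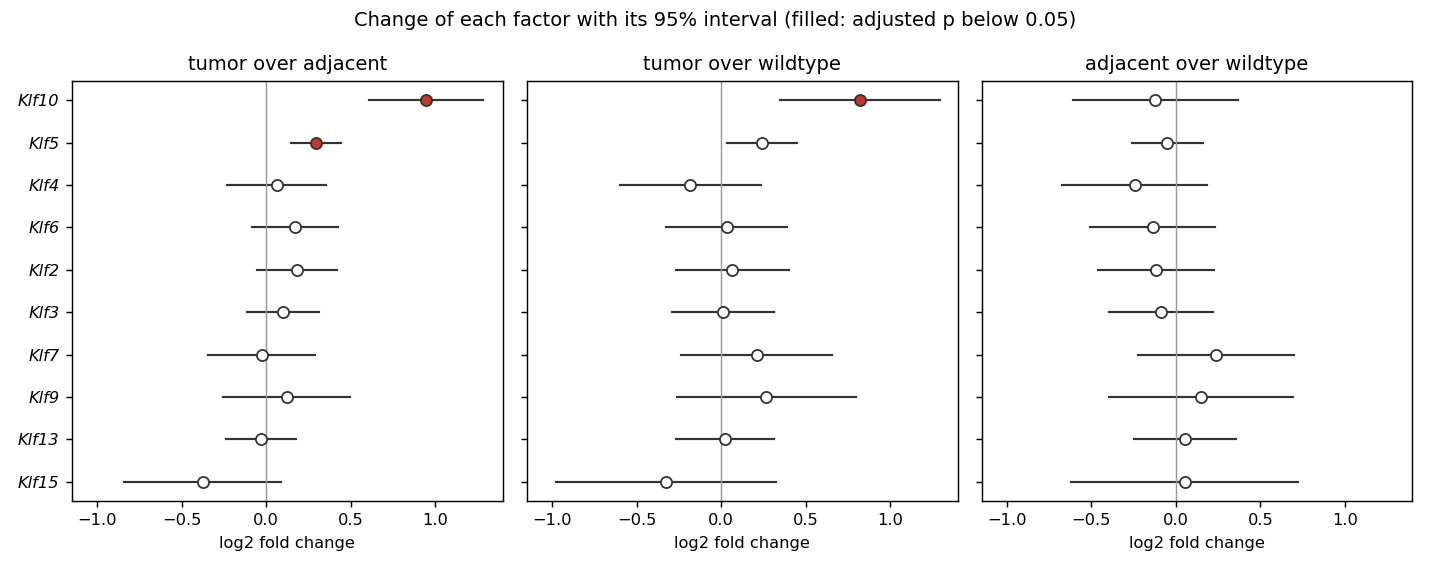
Log2 fold change of each factor in tumor over adjacent tissue, tumor over wildtype and adjacent over wildtype (points), with 95% intervals (lines) and filled points for an adjusted p below 0.05. Klf10 is filled in the first and second panels at 0.95 and 0.82, Klf5 in the first at 0.29, and no point is filled in the third.

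Klf4, the differentiation factor that opposes Klf5 in the crypt, did not pass. It ranged from 10.59 to 11.43 in tumors (median 10.94), against 10.73 to 11.20 in adjacent tissue (median 10.86) and 10.92, 11.01 and 11.53 in wildtype duodenum. The ranges overlapped in each comparison, and 3 of 5 pairs were higher in the tumor. The 95% interval of tumor over adjacent tissue ran from 0.85 to 1.28 in fold (adjusted p = 0.811), which leaves out a change of 1.5-fold either way but not smaller ones. Against wildtype it ran from 0.66 to 1.18 (adjusted p = 0.626). The SD of Klf4 was 0.34 in tumors and 0.18 in adjacent tissue.

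Klf6, a factor of the early injury response, ranged from 11.03 to 11.33 in tumors, against 10.81 to 11.19 in adjacent tissue. Its wildtype values of 11.60, 11.14 and 10.61 spanned both ranges and more. In tumor over adjacent tissue it differed by 0.17 ± 0.12 (adjusted p = 0.332), higher in 4 of 5 pairs. Wildtype replicate 1 had the highest value of both Klf4 and Klf6 among the 14 arrays.

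Klf2, the factor of endothelium and resting lymphocytes, ranged from 7.50 to 7.98 in tumors, against 7.24 to 7.76 in adjacent tissue and 7.35 to 8.01 in wildtype duodenum. The difference of 0.18 ± 0.11 in tumor over adjacent tissue did not pass (adjusted p = 0.248), with 4 of 5 pairs higher. Of cell types that carry Klf2, 9 of 9 T and NK cell markers fell, against 12.6% of all genes lower, and 2 of 8 endothelial markers rose, a share near the 19.1% of all genes higher. The T and NK cell mean was 7.09 to 8.14 in tumors, against 9.23 to 9.60 in adjacent tissue, and the endothelial mean was 8.18 to 8.95 in tumors and 7.95 to 8.47 in adjacent tissue, which overlap. Whether this bears on Klf2 was not tested.

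Klf3, the CtBP-dependent repressor, ranged from 11.23 to 11.78 in tumors, against 11.26 to 11.66 in adjacent tissue and 11.49 to 11.72 in wildtype duodenum. Its 95% interval in tumor over adjacent tissue was 0.93 to 1.24 in fold (adjusted p = 0.524). Klf13, of the Sin3A-binding group and known from T cells, had the narrowest interval among the 8 uncalled factors, 0.85 to 1.13 in fold (adjusted p = 0.864). It ranged from 8.85 to 9.41 in tumors, against 9.03 to 9.35 in adjacent tissue and 9.06 to 9.20 in wildtype duodenum. Klf7, known from neurons and fat cells, was at 8.43 to 9.52 in tumors, against 8.82 to 9.21 in adjacent tissue and 8.45 to 9.21 in wildtype duodenum. Its difference within a mouse went both ways, between -0.68 in the mouse of tumor replicate 6 and 0.58 in that of tumor replicate 3. For all of these factors the groups overlapped in each comparison.

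Klf9, the glucocorticoid-induced partner of Sin3A, did not pass in any comparison. It was at 9.92, 9.88, 10.72, 9.95, 10.35 and 9.62 in tumor replicates 1 to 6. Adjacent replicates 1 to 5 had 9.74, 10.67, 9.77, 9.75 and 9.89, and the wildtype arrays had 10.35, 9.55 and 9.53. The highest tumor value and the highest adjacent value came from 1 mouse, that of tumor replicate 3 and adjacent replicate 2. In tumor over adjacent tissue the log2 fold change was 0.12 ± 0.18 (adjusted p = 0.689), with a 95% interval of 0.84 to 1.41 in fold.

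Klf15, the factor of amino acid metabolism, varied more than any other member within adjacent tissue (SD 0.68, n = 5). Tumor replicates 1 to 6 had 7.84, 7.93, 8.57, 7.82, 8.80 and 8.23. Adjacent replicates 1 to 5 had 7.92, 9.73, 8.26, 8.50 and 8.60, and the wildtype arrays had 8.59, 8.39 and 8.60. Adjacent replicate 2 was the highest array for Klf15, and adjacent replicate 1 lay among the low tumors. The log2 fold change of -0.38 ± 0.22 in tumor over adjacent tissue did not pass (adjusted p = 0.222), and without adjacent replicate 2 it was -0.12 ± 0.15. The 95% interval for Klf15 was 0.56 to 1.06 in fold, the widest of the 10 factors on the log2 scale.

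Adjacent replicate 2 therefore had the lowest Klf5 and Klf10 of the adjacent arrays beside the highest Klf9 and Klf15. Over the 8 non-tumor arrays the Pearson r was -0.95 between Klf5 and Klf15 and 0.76 between Klf9 and Klf15. Without adjacent replicate 2 these were -0.76 and 0.23 over 7 arrays, so the second rests on that array. The arrays share their normalization and mice, and these values are descriptions. This array also had the highest acinar mean of all, and the part of acinar tissue in these values was not tested. Among the 4 non-tumor arrays with acinar transcripts Klf15 ran from 7.92 to 9.73, against 8.26 to 8.60 in the 4 without.

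**Figure D3:**
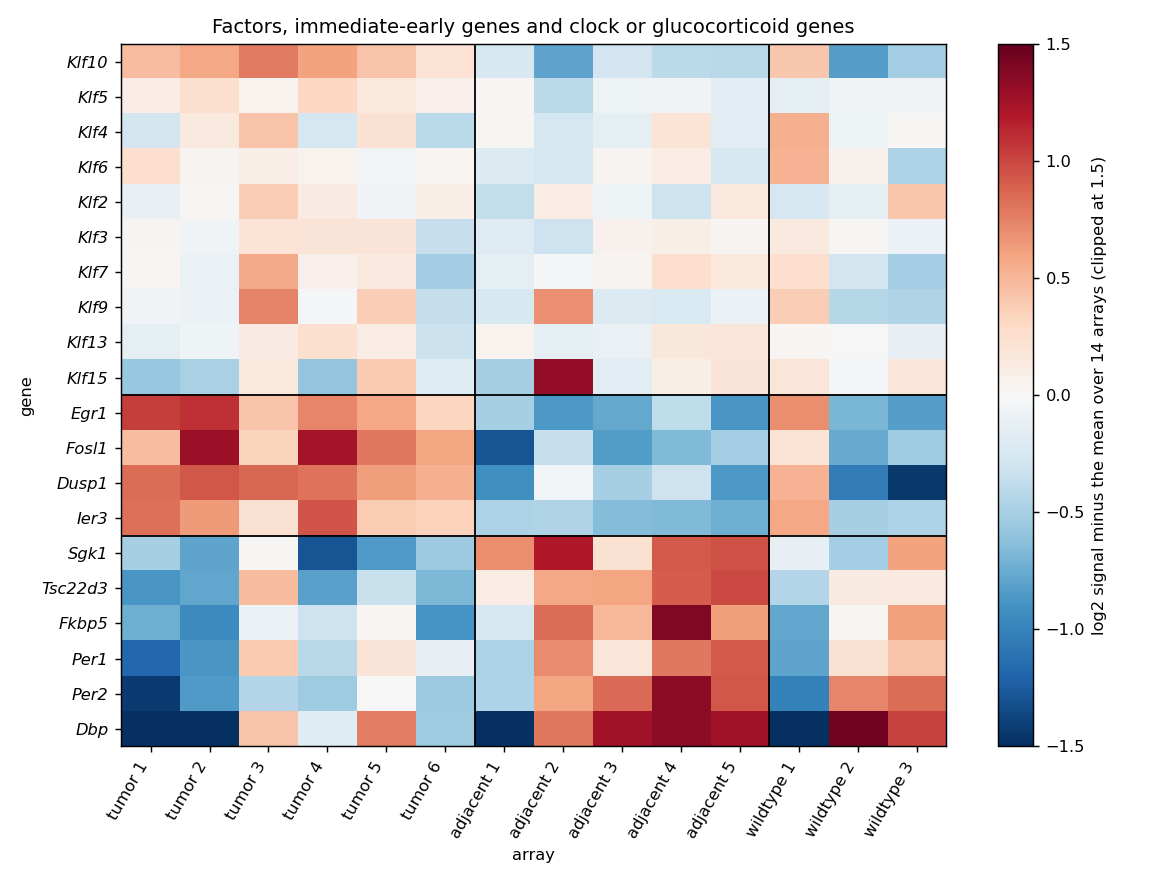
Log2 signal minus the gene's mean over 14 arrays (colour, clipped at 1.5) for the 10 factors, 4 immediate-early genes and 6 glucocorticoid or clock genes in rows, and tumor, adjacent and wildtype arrays in columns. Klf10 is red in all 6 tumors and in wildtype 1, at 10.09, and Klf9 is deepest red in tumor 3 and adjacent 2, at 10.72 and 10.67.

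Promoter sequences were read where the factors bear on each other or on the clock, from RefSeq's GRCm38.p6 table, in which 8 of the 10 factors were matched, all but Klf5 and Klf10. The 250 bases before each start were searched on both strands for CACCC, the core that these factors bind, for the GC box GGGCGG, also bound by Sp proteins, and for the E-box CACGTG, bound by clock and Myc proteins. Matches of different motifs may overlap. CACCC was present in 6 of the 8 promoters, against 52.0% of 32851 promoters in the table, the GC box in 7 of 8, against 32.7%, and the E-box in 3 of 8, against 6.0%. Klf3 held 5 CACCC and 6 GC box matches, and 0.7% and 0.9% of promoters held as many. Klf15 held 2 E-box matches, and 0.4% of promoters held as many. Klf15 is shown for its E-boxes, beside the clock genes below, and Klf3 for its matches to the family's own motif. Both lie on the plus strand, Klf15 at chr6:90462326-90462575 and Klf3 at chr5:64803271-64803520, with E-boxes in capitals in the first and CACCC and GC box matches in capitals in the second.
Klf15: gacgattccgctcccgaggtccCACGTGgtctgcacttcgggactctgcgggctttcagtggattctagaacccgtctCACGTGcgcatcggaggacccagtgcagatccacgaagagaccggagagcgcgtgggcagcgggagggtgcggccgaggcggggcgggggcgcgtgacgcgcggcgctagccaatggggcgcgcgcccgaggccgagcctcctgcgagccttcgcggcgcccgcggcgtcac
Klf3: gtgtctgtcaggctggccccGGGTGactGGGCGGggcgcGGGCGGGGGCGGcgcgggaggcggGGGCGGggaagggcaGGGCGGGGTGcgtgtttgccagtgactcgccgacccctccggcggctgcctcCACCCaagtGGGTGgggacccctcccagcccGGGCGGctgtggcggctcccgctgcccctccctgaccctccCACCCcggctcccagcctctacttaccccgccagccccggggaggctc
A match is a run of letters and not a site shown to be bound. Neither gene passed in any comparison, as given above.

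Among 15 further Klf and Sp genes measured, 2 rose and 2 fell in tumor over adjacent tissue (31.7% of all genes passed), with a median log2 fold change of -0.01. Klf12, a repressor that binds CtBP, rose more than any of the 10 factors, by 1.42 ± 0.18 (adjusted p = 3.09e-05). It was at 7.45, 7.44, 8.39, 7.97, 8.37 and 7.38 in tumors 1 to 6, against 6.27 to 6.59 in adjacent tissue. Wildtype replicate 1 lay between tumors and adjacent tissue for Klf12, at 7.19, with 6.37 and 6.51 in the other two. Klf16 rose by 0.25 ± 0.08 (adjusted p = 0.0332). Sp5, a target and partner of Wnt signalling, fell by 0.74 on the log2 scale (adjusted p = 2.08e-05) and Sp4 by 0.61 (adjusted p = 0.00133). Of 6 corepressor genes 3 rose and 0 fell, against 19.1% of all genes higher. These were the repressor partner Ctbp2 by 0.55 ± 0.09, Ctbp1 by 0.23 ± 0.06 and the deacetylase Hdac1 by 0.57 ± 0.10, while Sin3a was at 0.01 ± 0.10 (adjusted p = 0.969).

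Of 10 genes tied to Klf4 in differentiated epithelium 3 rose and 2 fell, against 19.1% of all genes higher and 12.6% lower, and their median was -0.02, against 0.04 over all genes. The envelope protein gene Sprr1a rose by 4.74 ± 0.49 and the goblet regulator Spdef by 1.97 ± 0.26, while Krt20 fell by 0.45. Wildtype replicates 1 to 3 had Sprr1a at 13.13, 8.575 and 8.87, against 13.62 to 13.76 in tumors. Their Spdef was at 10.445, 8.99 and 9.38, against 10.22 to 12.255 in tumors. Of 9 genes tied to Klf5 in dividing crypt cells, 3 rose and 1 fell, against 31.7% of all genes passing. Cyclin gene Ccnd1 rose by 1.02 ± 0.15, Myc by 0.44 ± 0.13 and Cdk1 by 0.42 ± 0.14, and the growth factor gene Pdgfa fell by 0.32. This count was 2 without adjacent replicate 1 or 3 and without tumor replicate 2, 4 or 6, where 1 rose and 1 fell each time, and also 2 with mouse as a fixed block, which is a share near or below that of all genes. The proliferation markers Mki67 (0.16 ± 0.15) and Pcna (0.10 ± 0.11) did not pass.

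Klf4, Klf6 and Klf10 are often induced with immediate-early genes, of which 6 of 16 rose and 2 fell, beside 19.1% higher and 12.6% lower over all genes. Their median was 0.24. Fosl1 rose by 1.54 ± 0.21, Egr1 by 1.35 ± 0.20, the phosphatase Dusp1 by 1.29 ± 0.23 and Ier3 by 1.14 ± 0.16. Zfp36, which marks messenger RNA for decay, fell by 0.59, and Ier5 fell by 0.43. The list mean was 9.35 in wildtype replicate 1, above the 8.94 to 9.32 of tumors, and 8.55 and 8.45 in wildtype replicates 2 and 3. In tumor over wildtype 3 of 16 rose and 0 fell, beside 9.65% higher and 4.48% lower over all genes. In tumor over adjacent tissue Klf10 rose, and Klf4 and Klf6 did not pass. Among 10 TGF-beta-responsive genes, the response in which Klf10 was found, 4 rose and 3 fell, beside 19.1% higher and 12.6% lower over all genes, and the median was -0.04. Pmepa1 rose by 1.71 ± 0.16 and Id1 by 0.83 ± 0.14, whereas Tgfbi fell by 1.16 and the feedback inhibitor Smad7 by 0.45.

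Of 14 genes that glucocorticoids or the clock control, 10 fell in tumor over adjacent tissue and 0 rose. This stood beside 12.6% of all genes lower, and the list median was -0.70 in log2 fold change, against 0.04 over all genes. Sgk1 fell by 1.47 (adjusted p = 2.94e-05), and Per2 fell by 1.24. Hlf fell by 1.21 and Tsc22d3 fell by 1.11. Klf9 and Klf15, known to respond to the same signals, did not pass. Within mice of letter F, with fewer arrays, 1 of 14 passed at a list median of -0.58, beside 1719 of all 19938 genes. Within letter B the median was -0.87. Without the non-tumor arrays lacking acinar transcripts 1 of 14 passed too, at a median of -0.47, beside 2181 of all genes. None passed in tumor over wildtype in limma, where the median was -0.45 and 1 of 14 had an unadjusted p under 0.05. Against wildtype 4 of the 14 were lower without wildtype replicate 1, beside 1424 of all 19938 genes lower. With array weights 7 of the 14 were lower, beside 2871 of all genes, and within letter B 7, beside 1346. Without tumor replicate 3 it was 1 of the 14, beside 869 of all genes. Without the non-tumor arrays holding acinar transcripts 2 of the 14 were lower, but wildtype replicate 2 was then the lone wildtype array and was assumed to vary like the other groups. The clock-output gene Dbp, chosen after its values were seen, was at 7.75 and 7.97 in tumor replicates 1 and 2, 8.31 in adjacent replicate 1 and 8.39 in wildtype replicate 1, against 9.46 to 11.45 in the other 10 arrays. These 4 arrays come from 3 mice of letter F, and in the same arrays Klf9 was at 9.92, 9.88, 9.74 and 10.35 and Klf15 at 7.84, 7.93, 7.92 and 8.59.

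**Figure D4:**
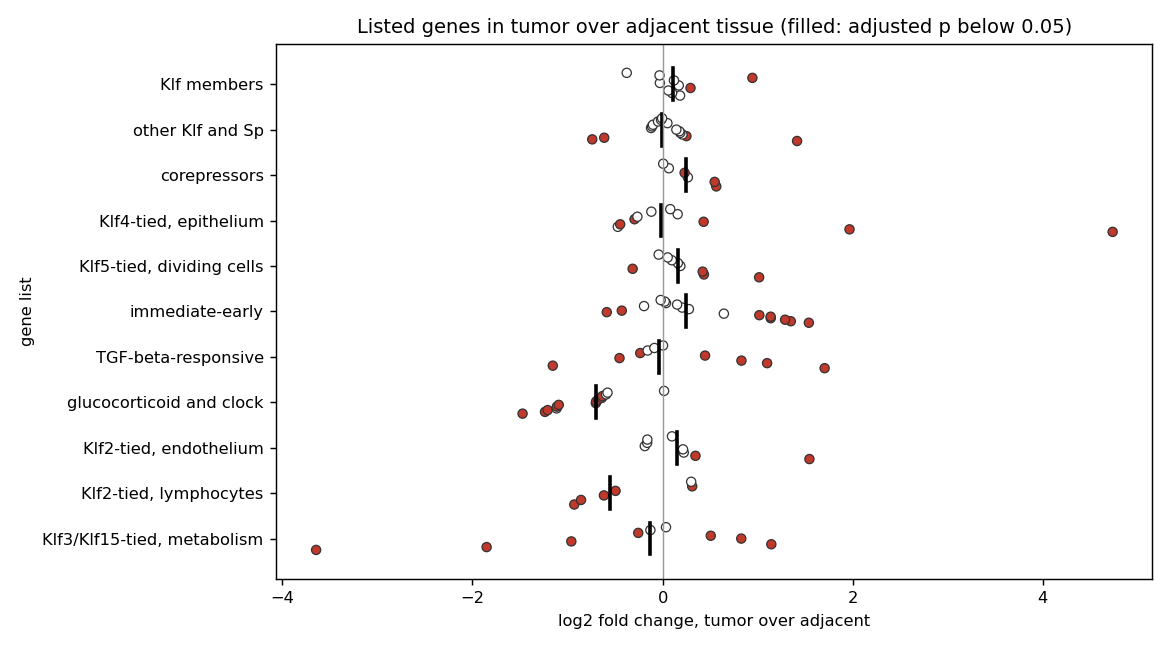
Log2 fold change in tumor over adjacent tissue for each measured gene (points, filled for an adjusted p below 0.05) of the 10 factors and of 10 gene lists, with black bars at list medians. The glucocorticoid and clock list lies at or below 0.02 throughout, with its median at -0.70, and 8 of the 10 factors are unfilled near 0.

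Genes tied to Klf2 were read separately for endothelium and lymphocytes, beside 19.1% of all genes higher and 12.6% lower. Of 8 endothelial genes 2 rose, the vasoconstrictor gene Edn1 by 1.55 ± 0.30 and thrombomodulin (Thbd) by 0.35 ± 0.10, while Nos3 was at 0.22 ± 0.08 (adjusted p = 0.058). Edn1 was at 9.35, 6.81 and 6.93 in wildtype replicates 1 to 3, against 7.96 to 8.87 in tumors. Of 6 lymphocyte genes 4 fell and 1 rose, with Il7r lower by 0.93 on the log2 scale and S1pr1, a known Klf2 target in T cells, at 0.30 ± 0.11 (adjusted p = 0.0543). The 9 of 9 T and NK cell markers that fell, with a median of -2.28, moved beside these lymphocyte genes. Among 9 metabolic genes tied to Klf3 or Klf15, 3 rose and 4 fell, beside 9 of 10 enterocyte markers that fell, with a median of -2.56. The part of either cell type in these lists was not tested. Pck1, of glucose synthesis, fell by 3.65, the transaminase gene Gpt fell by 1.85 and the proline dehydrogenase gene Prodh fell by 0.96, while Bcat2, of branched-chain amino acid breakdown and a known Klf15 target in muscle, rose by 1.14 ± 0.31. Bcat2 and Klf15 shared their highest adjacent array, replicate 2, at 10.9 and 9.73.

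The genes whose level followed a factor most closely over the 14 arrays were ranked by Pearson's r among 12001 candidates with a mean log2 signal of at least 7, as a description. For Klf10 these were Mpv17l2 (r = 0.97), Smurf1 (0.97) and Adgrg2 (0.97), with r of 0.95, 0.93 and 0.89 over the 8 non-tumor arrays. Among those 8, wildtype replicate 1 stood apart in Klf10, at 10.09 against 9.44 or below, and r without it was not computed. For Klf5 they were Faap100 (0.96), Micall2 (0.93) and Clip2 (0.93). Klf9 was nearest to Arl3 (0.94), Kdm1b (0.93) and Tpst2 (0.93), and Klf15 to Fxyd1 (0.92), Rassf8 (0.90) and Sntb1 (0.88). The highest r of Klf4 was 0.82, to Frg2f1, followed by Wipf2 (0.82) and Ly6g6c (0.79), the lowest top value of the family. Klf2 was nearest to Klc3 (0.89), Klf3 to Trio (0.90), Klf6 to Ndufb6 (0.90), Klf7 to Golga3 (0.91) and Klf13 to Spen (0.87). Klf5 and Klf10 had an r of 0.25 with each other over the 8 non-tumor arrays. The arrays share mice and normalization.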

How the data were processed

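RNA was hybridised to 14 arrays from 9 mice. The deposited table holds log2 signal for 35556 transcript clusters, the unit being read from its values (2.87 to 14.8). Affymetrix Expression Console 1.1 and mm9 are named per the submitters' processing notes, while for background correction and normalization the method was not given in the sources used here. Medians per array of 7.11 to 7.29 were left as deposited. Symbols came from the platform annotation, updated by gene identifier through a GRCm38.p6 table (21698 of 21789 single-symbol clusters). The brightest cluster per gene gave 19938 genes. All arrays entered 1 fit of 3 group means in limma 3.58.1 (R 4.3.3), where mouse was a random block (correlation 0.334), with two-sided moderated tests and Benjamini-Hochberg adjustment over all genes at 0.05. Intervals of 95% are unadjusted. The fit was checked on simulated data. Precision is limited by the number of arrays, and samples of 1 group came from separate mice.

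The mouse named in the labels pairs tumor and adjacent tissue. Deviations from group means correlated at 0.23 on average within a mouse and -0.05 between mice, and 4 of 5 pairs were positive. The factors, lists and marker genes were chosen with earlier results of these data known. Named genes are the 10 factors, Lrig1, at most 4 passing members of each list by size of change in tumor over adjacent tissue, and the most alike genes by correlation. Others named (Dbp, Sin3a, Mki67, Pcna, Nos3, S1pr1, Smad7, Zfp36 and Ier5) were picked after their values were seen. Alternatives covered normalization, filters, the mouse block, array weights, ID letter, arrays with acinar transcripts and each array left out. Some listed genes were not analysed here, and counts are over those measured.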

Additional observations from a re-analysis of the deposited data

Results flagged for a closer look

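Of 96 groups of tumor or adjacent arrays checked over the factors, Lrig1 and the named genes of the lists, 7 held 1 array far from the rest of its group, and chance alone gives about 1 in 20. Among the factors it was 1 of 20: Klf9 at 10.668 in adjacent replicate 2, with the other adjacent arrays between 9.742 and 9.889. The same array was lowest in the adjacent group for Tgfbi, at 11.63 with the others at 12.118 or above, and highest for Bcat2, at 10.865 with the others at 9.324 or below. Adjacent replicate 1 was highest for Tgif1, at 9.948 against 9.469 or below, and lowest for Pck1, at 9.717 against 11.65 or above. Sp5 was lowest in adjacent replicate 3, at 8.24 against 8.431 or above, and Hdac1 in tumor replicate 5, at 11.175 against 11.551 or above.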

How the results depend on the processing

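Klf10 passed in tumor over adjacent tissue under all 29 alternatives, with a log2 fold change of 0.79 to 1.14 and adjusted p-values of 1.3e-05 to 0.0197, and Klf5 under 27 of 29, at 0.24 to 0.35. The count of called factors there was 1 within letter F and 1 without the non-tumor arrays lacking acinar transcripts, in place of 2, and 2 to 2 with each array left out. In tumor over wildtype the count was 2 with array weights, which added Klf5 (adjusted p = 0.0242). It was 0 when only the groups compared entered the fit (Klf10 adjusted p = 0.0527), 0 within letter F and 0 without the non-tumor arrays lacking acinar transcripts, and 0 to 1 with each array left out. In adjacent tissue over wildtype it was 0 under all 28 alternatives. No called factor changed direction. Among all 850 recomputed values, those of called factors included, 67 changed sign where the factor passed in neither case. With the mouse as a fixed replicate block over 5 pairs, Klf10 differed by 0.95 ± 0.14 (adjusted p = 0.00185) and Klf5 by 0.30 ± 0.07 (adjusted p = 0.0198). Without the block the adjusted p-values were 0.0016 and 0.0206, so the block changed no call of a factor. Over all genes, 6313 passed in tumor over adjacent tissue, against 1719 within letter F and 2181 without the non-tumor arrays lacking acinar transcripts. In tumor over wildtype 2817 passed, against 7039 with array weights, 14 within letter F, 504 without the non-tumor arrays lacking acinar transcripts, and 4526, 940 and 1090 without wildtype replicates 1, 2 and 3. In adjacent tissue over wildtype 0 passed, against 73 within letter F and 1 with quantile normalization, the filter on dim genes, array weights or without wildtype replicate 3. The settings listed here with fewer calls used fewer arrays, and what else changed them was not tested.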
